A study of Patiria miniata with 46 samples.

Results

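A group of 150 loci stood much lower in the first 11 sections along an arm of the bat star Patiria miniata, a sea star, than from section 12 on. Most had few or no counts in those first sections, but V4_HAP1_PB.21421 was detected in each of them. The 150 loci were selected on their proximo-distal counts among the 23802 loci with a V4_HAP identifier. The table holds 23869 loci in all, and its rows with a gene symbol were not candidates. A locus needed at least 50 counts over that series and a mean in sections 12 to 19 no lower than in sections 20 to 22, which 5585 loci met. The 150 with the highest ratio of the mean of sections 12 to 19 to the mean of sections 1 to 11 were kept, with 5 added to both means. Means are in CPM (counts per 1000000 counts of the library), with the locus V4_HAP1_PB.21421 left out of the totals. Proximo-distal values of these loci are therefore a description without a test, and the oral-aboral and left-right series are where they were tested.

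The arms came from young animals and were embedded, cryosectioned and sequenced section by section as polyadenylated RNA, in 46 libraries. The oral-aboral series (8 sections, through its thickness) and the proximo-distal series (22 sections, along its length) are of specimen 1, and the left-right series (16 sections, across the width) is of specimen 2. Each position was sampled once, so p-values measure only the spread of sections around a curve within 1 arm. The labels do not tell whether section 1 lies at the disc or at the tip, or on which face or side, so positions are given by number. A section holds every tissue at its position, so fewer cells of a type and less RNA per cell cannot be told apart. Totals ranged from 2573762 to 6921408 counts in the oral-aboral, 196002 to 680685 in the proximo-distal and 250704 to 1591759 in the left-right series.

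A sea star arm holds a radial nerve cord and a water vascular canal with tube feet towards the oral face. It has a body wall of skeletal ossicles, muscle and epidermis around it, and the digestive glands (pyloric caeca) and gonads lie in the coelom inside. The caeca open into the stomach in the central disc. Serial sections along an axis pass through these organs in turn. The 150 loci carry only assembly identifiers, 148 tagged HAP1 and 2 tagged HAP2. The files do not pair these with names or sequences, so no function is given for any of them. Levels are compared between sections and not between loci, since the lengths of the transcript models are not given.

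Along the length of the arm the loci came on together. Between 32 and 58 of the 150 had any count in each of sections 1 to 11, whereas 149 had counts in section 12 and all 150 in sections 13 to 18. The median locus was at 0 CPM in each of sections 1 to 11, at 48.5 CPM in section 12, 78.4 in section 13, 119 in section 14 and 169 in section 15. It stayed at 164, 168 and 145 CPM in sections 16, 17 and 18, and then stood at 54.5, 48.5, 37.0 and 22.2 CPM in sections 19, 20, 21 and 22. In CPM, the largest step of the median locus between neighbouring sections was the drop between sections 18 and 19. As a fold change, the rise from 0 CPM in section 11 to 48.5 CPM in section 12 was larger. The rule's own windows place the onset at section 12 and favour loci that are no higher in sections 20 to 22. Of the 150 loci, 24 first passed 50% of their own mean of sections 12 to 19 in section 12, 103 in section 13, 20 in section 14 and 3 in section 15. The highest section was 15 for 47 loci, 16 for 35, 17 for 38 and 18 for 22. The other 8 loci were highest in section 13 or 14.

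Before the onset most of the group was at or near the limit of detection. Over sections 1 to 11 together 55 of the loci had 0 counts, 36 had 1 to 3 counts and 59 had more. A count of 0 there allows up to 0.816 CPM (3 counts over the 11 libraries together, counting error only). Set against that floor, the 55 loci were at least 45.5-fold higher in sections 12 to 19, with a median bound of 80.4. The ratio of the rule ranged from 8.20 to 4959 with a median of 17.6. At the boundary, V4_HAP1_PB.4218 entered last with means of 37.6 CPM in sections 12 to 19 and 0.197 CPM in sections 1 to 11. The first locus left out, V4_HAP1_PB.12422, had a ratio of 8.00, from 98.2 and 7.90 CPM.

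**Figure D1:**
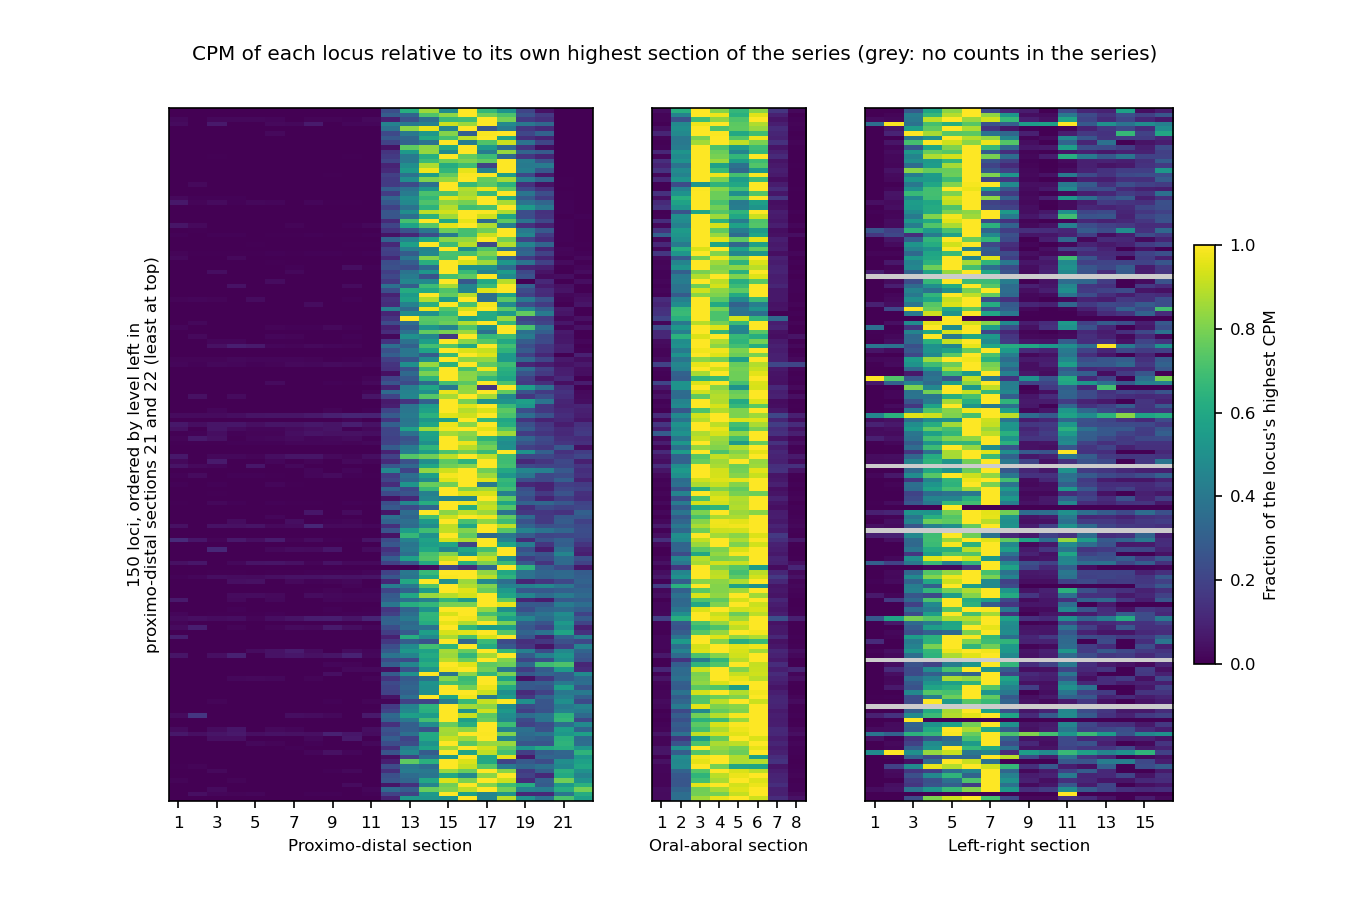
CPM of each of the 150 loci (rows) in every proximo-distal, oral-aboral and left-right section (columns), as a fraction of that locus's highest section in the series, with rows ordered by the level left in proximo-distal sections 21 and 22. All rows are dark in proximo-distal sections 1 to 11, light within oral-aboral sections 3 to 6, and most are lightest in left-right sections 5 to 7 and dark again in sections 9 and 10; grey rows are the 5 loci with no left-right counts.

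The locus of the group with the most counts was V4_HAP1_PB.21421. It made up 33.6% ± 13.1 of all counts in sections 12 to 19 (SD, n = 8 sections) and 1.21% ± 0.57 in sections 1 to 11 (n = 11 sections). It reached 50.3% in section 15 (exact 95% binomial interval 50.1 to 50.5) and was still at 12.2% in section 22. It was already detected in section 1, at 0.453% of the counts, and stood at 2.16% in section 11. The share of this 1 locus differed widely between the series: over all sections pooled it took 17.4% of the proximo-distal, 4.65% of the oral-aboral and 0.292% of the left-right counts.

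Summed, the other 149 loci differed less between the series than V4_HAP1_PB.21421 did. Taken singly, most loci of the group were also lower in the left-right than in the oral-aboral series. Of the counts without V4_HAP1_PB.21421 the 149 loci together made up 3.43% of the proximo-distal, 4.55% of the oral-aboral and 2.62% of the left-right series. Within the proximo-distal series they stood at 0.178% in section 11, 2.64% in section 12 and 13.5% in section 16, their highest. What sets the share of V4_HAP1_PB.21421 apart between the series was not tested, and specimen and cutting axis cannot be told apart for the left-right series.

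**Figure D2:**
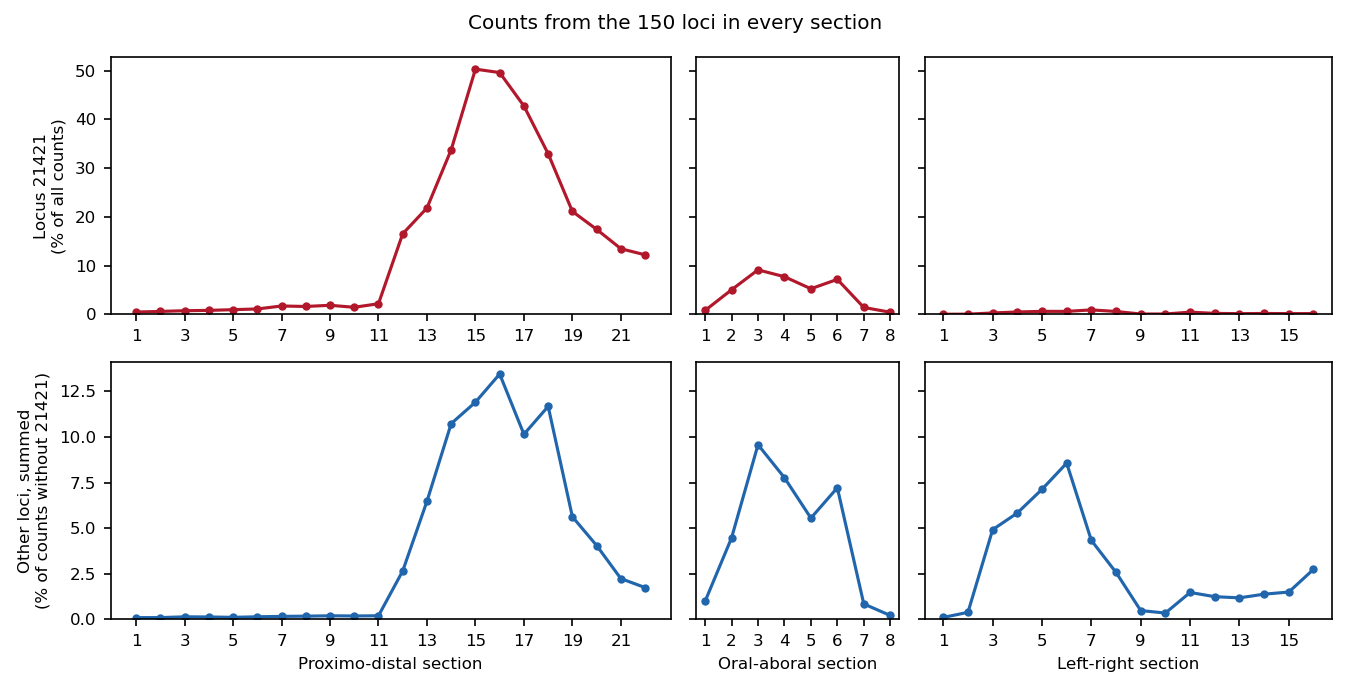
Share of the counts of each library in the proximo-distal, oral-aboral and left-right series, for locus V4_HAP1_PB.21421 (top, % of all counts) and for the other 149 loci summed (bottom, % of the counts without it). The upper curve peaks at 50.3% in proximo-distal section 15 and stays under 1% in the left-right series, while the lower curves of the 3 series peak at heights of 8.56% to 13.5%.

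The locus with the highest ratio, V4_HAP1_PB.2778, averaged 26722 ± 13271 CPM in sections 12 to 19 (SD, n = 8 sections) and had 2 counts in all of sections 1 to 11. It stood at 4918 CPM in section 12, 22632 in section 13 and 41605 in section 18, and then at 11462, 144.6 and 3.70 CPM in sections 20, 21 and 22. The next, V4_HAP1_PB.3962, had 0 counts in sections 1 to 11 and was at least 4182-fold higher in sections 12 to 19, where it averaged 3411 ± 1414 CPM (SD, n = 8 sections). It too was all but gone at the end, with 15.5 CPM in section 21 and 0 counts in section 22.

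Across the thickness of the arm, which the rule did not use, all 150 loci were higher in the inner sections than at both faces. In edgeR's quasi-likelihood test of the curvature along the 8 oral-aboral sections (adjusted p under 0.05 over all loci tested), 150 of 150 were called higher inside, where 27.0% of the 20395 loci tested were. None was called lower inside, against 23.3% of all loci. With sections 3 to 6 set against the rest as 2 groups, 93 of the 150 were called higher inside, against 22.4% of the 19175 loci tested that way. The fitted change is the log2 difference of the centre over the ends of the series. Its median was 5.57 over the 150 loci, with a range of 2.01 to 7.51, and 0.07 over all loci tested. Of all loci 86.5% lay below the lowest of the 150.

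The counts show the same shape section by section. The median locus stood at 120.3, 123.0, 110.5 and 135.2 CPM in sections 3, 4, 5 and 6. It was at 2.96 and 52.1 CPM in sections 1 and 2, and at 11.6 and 1.23 CPM in sections 7 and 8. Section 2 was the intermediate one, at a median of 45.1% of a locus's own mean over sections 3 to 6. Each of sections 3 to 6 exceeded each of sections 1, 7 and 8 for 150 of the 150 loci, against 38.4% of the 18424 loci with at least 50 oral-aboral counts. With section 2 among the outer sections, 131 of the 150 had no overlap between inner and outer sections, against 29.9% of those loci. Library totals ranged from 2573762 to 6921408 counts in sections 3 to 6, against 3774958 to 6292484 in the other sections.

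**Figure D3:**
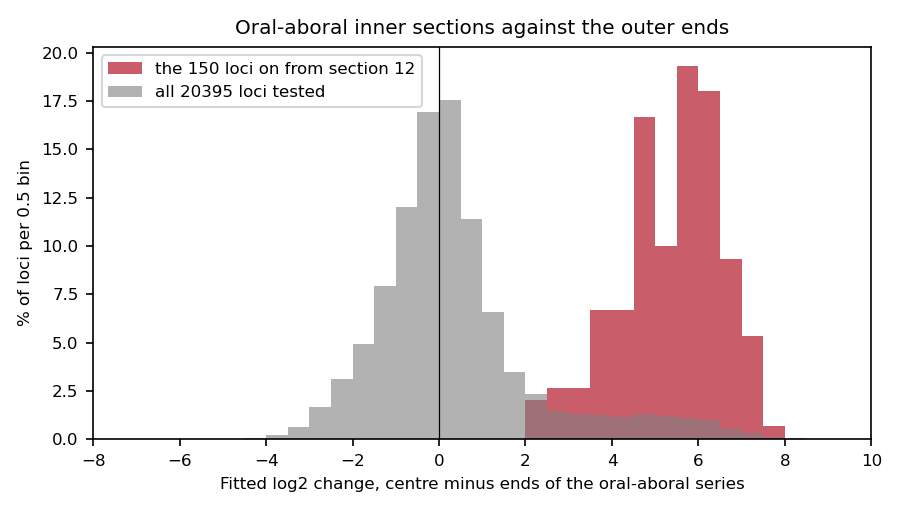
Distribution of the fitted log2 change from the ends to the centre of the oral-aboral series, as the percentage of loci per bin, for the 150 loci and for all 20395 loci tested. All of the 150 lie between 2.01 and 7.51, to the right of 86.5% of all loci.

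The smallest p-values among them belonged to V4_HAP1_PB.24398 and V4_HAP1_PB.7331. V4_HAP1_PB.24398 had 71.7, 99.3, 129.7 and 122.6 CPM in sections 3 to 6, against 1.76, 21.0, 10.5 and 1.15 CPM in sections 1, 2, 7 and 8. No outer section came near an inner one, and the fitted log2 change was 6.23 ± 0.51 (SE, edgeR adjusted p = 6.1e-05). V4_HAP1_PB.7331 had 57.5, 64.4, 75.0 and 63.2 CPM in sections 3 to 6, against 2.72, 23.3, 6.72 and 2.29 CPM in sections 1, 2, 7 and 8. Here too the inner and outer sections did not overlap, and the log2 change was 4.76 ± 0.44 (SE, edgeR adjusted p = 7.2e-05).

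The loci with the most counts had less clear-cut borders on the side of section 1. V4_HAP1_PB.2778 had 27091, 18286, 9083 and 14543 CPM in sections 3 to 6, against 4028, 12971, 2282 and 92.9 CPM in sections 1, 2, 7 and 8, so that section 2 exceeded section 5. Its log2 change was 4.66 ± 0.82 (SE, edgeR adjusted p = 0.00132). V4_HAP1_PB.21421 made up 9.11%, 7.70%, 5.23% and 7.16% of all counts in sections 3 to 6, against 0.786%, 5.02%, 1.40% and 0.416% in sections 1, 2, 7 and 8. Its log2 change was 3.68 ± 0.60 (SE, edgeR adjusted p = 0.000841). V4_HAP1_PB.2778 and V4_HAP1_PB.21421 no longer passed without both end sections (adjusted p = 0.137 and 0.120).

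Within the inner sections most loci were highest in section 3 or in section 6. Of the 150, 59 were highest in section 3, 25 in section 4, 9 in section 5 and 57 in section 6. Summed, the 149 loci without V4_HAP1_PB.21421 took 9.58%, 7.76%, 5.55% and 7.21% of the remaining counts in sections 3, 4, 5 and 6, and V4_HAP1_PB.21421 itself had the same order. The linear term gave the tilt between the faces. It was negative, towards higher levels at section 1, for 21 of the 150 loci, where 2.74% of all loci were called negative. No locus of the 150 was called positive (5.68% of all loci). The median fitted log2 change from the first to the last section was -1.18 over the 150 loci and -0.04 over all loci.

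V4_HAP1_PB.17329 had one of the 2 smallest p-values of the tilt. It had 30.6 and 1.15 CPM in sections 7 and 8, against 103.5 and 357.6 CPM in sections 1 and 2, and 686.1, 538.2, 291.1 and 354.0 CPM between them in sections 3 to 6. Its log2 change from section 1 to section 8 was -4.52 ± 0.71 (SE, edgeR adjusted p = 0.00463). V4_HAP1_PB.14643 had 1.88 and 0.654 CPM in sections 7 and 8, against 5.93 and 20.8 CPM in sections 1 and 2, and a log2 change of -3.16 ± 0.49 (SE, edgeR adjusted p = 0.00451). The tilt rests on few sections. Of the 150 loci 3 were called without section 8, 10 without section 2, 10 without section 3, 12 without section 1 and 41 without section 6. The shares of all loci called in these fits ran from 0.752% without section 8 to 3.32% without section 6. With sections 6 to 8 set against sections 1 to 3, 0 of the 150 and 0 of all loci were called negative.

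Across the width of the arm most of the 150 loci were highest a little before the middle section. Of the 145 loci with a left-right count, 32 were highest in section 5, 54 in section 6 and 47 in section 7. The median locus stood at 0 and 2.09 CPM in sections 1 and 2 and at 31.1, 48.3, 60.0, 72.4, 72.2 and 36.3 CPM in sections 3 to 8. It then stood at 5.82 and 6.36 CPM in sections 9 and 10, and between 12.3 and 23.7 CPM in sections 11 to 16. The loci thus had a main block in sections 3 to 8, a gap in sections 9 and 10 and a lower second block beyond it.

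That shape was described after it was seen, and it is set against all loci without a test. Of the 138 loci of the group with at least 50 left-right counts, 126 had a lower mean in sections 9 and 10 than in both sections 6 to 8 and sections 11 to 16. That is 91.3% of them, against 24.9% of the 16101 loci with as many counts. The median locus of the group had 8.67% of its mean of sections 6 to 8 left in sections 9 and 10, and the median of those 16101 loci had 114%. The mean of sections 1 to 8 was above that of sections 9 to 16 for 137 of the 138 (99.3%), against 38.4% of loci.

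Neither term of the quadratic curve describes such a profile closely. Of the 140 loci of the group that passed the low-count filter, 17 (12.1%) were called higher in the middle than at the edges, against 13.3% of all 16523 loci tested. None was called lower in the middle (8.73% of all loci), and the median fitted log2 change was 1.91 over the 140 and 0.14 over all loci. The count rests on single sections: it was 5 without section 1, 8 without section 2, 8 without section 7, 39 without section 10, 37 without section 16 and 52 without section 9. In these fits the share of the group called ran from 3.57% without section 1 to 37.1% without section 9, and that of all loci was 10.5% and 12.6% in the same fits. The group's share thus lay below or above that of all loci depending on the section left out. For the slope from section 1 to section 16, edgeR called 0 of the 140 positive (0.920% of all loci) and 0 negative (0.157%). At an unadjusted p under 0.05 the slope was positive for 1 and negative for 11, DESeq2 called 1, with a positive slope, and limma-trend 0. A spline with 3 degrees of freedom, added after the data were seen, called a pattern of any shape in 127 of the 140, against 25.2% of 17233 loci tested. In the oral-aboral series the same spline called 149 of the 150, against 43.2% of 20395 loci.

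The 2 loci with the smallest p for the middle were highest in sections 7 and 8. V4_HAP1_PB.20487 had 1233, 8512, 4927, 1783, 932.2 and 2574 CPM in sections 6 to 11, against a range of 0 to 303.7 CPM in the other 10 sections. The ranges do not overlap, and the log2 change was 8.68 ± 1.52 (SE, edgeR adjusted p = 0.00047). This locus was also late along the arm: it was at 0 CPM in section 12 and 3.20 in section 13 and reached 3836 CPM in section 18. V4_HAP1_PB.21431 had 26.5, 76.6, 68.2, 17.5, 5.99 and 29.0 CPM in sections 6 to 11, against 0 to 24.4 CPM in the other sections. These ranges overlap through sections 9 and 10, and the log2 change was 4.19 ± 0.86 (SE, edgeR adjusted p = 0.00182).

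Both loci of highest ratio had the gap in sections 9 and 10. V4_HAP1_PB.2778 stood at 3.81 and 1300.1 CPM in sections 1 and 2, between 20418 and 26721 in sections 3 to 6, at 7193 and 5217 in sections 7 and 8 and at 554.0 and 143.8 in sections 9 and 10. It was higher again on the other side, with 974.0 CPM in section 11 and 14178 in section 16. V4_HAP1_PB.3962 stood at 2557 CPM in section 6, 6.74 in section 10 and 746.5 in section 16. For neither did the middle term pass the test (edgeR adjusted p = 0.612 and 0.888).

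**Figure D4:**
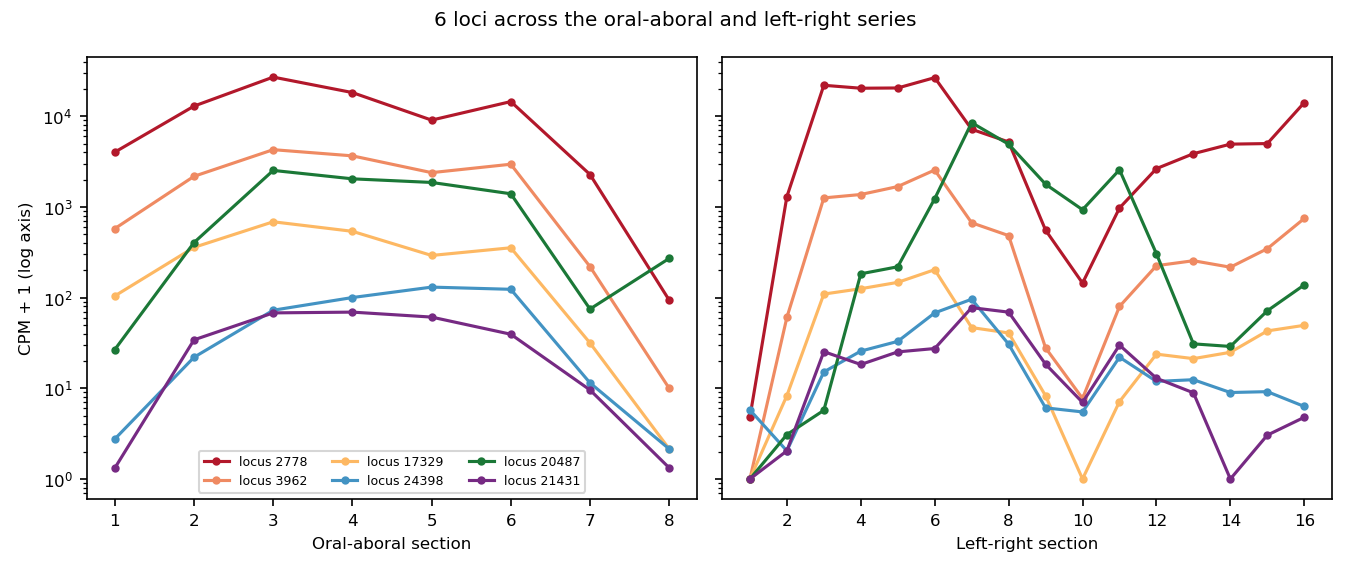
CPM + 1 on a log axis against section number in the oral-aboral (left) and left-right (right) series for 6 of the loci, 1 point per section. All 6 are highest in oral-aboral sections 3 to 6; in the left-right series V4_HAP1_PB.2778, V4_HAP1_PB.3962 and V4_HAP1_PB.17329 peak in section 6 and dip in section 10, while V4_HAP1_PB.20487, V4_HAP1_PB.21431 and V4_HAP1_PB.24398 peak in section 7.

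How far a locus persisted towards section 22 varied widely within the group, from 0% to 113% of its mean of sections 12 to 19 in sections 21 and 22. The following classes were drawn after the values were seen, so they carry no test. In the 55 loci with under 10% left, 36 were highest in oral-aboral section 3 and 13 in section 6. In the 48 loci with over 50% left, 7 were highest in section 3 and 22 in section 6. The 47 loci between them were mixed, with 16 highest in section 3 and 22 in section 6. Section 6 was above section 3 for 15 of the 55, 29 of the 47 and 36 of the 48 loci. Over the whole group that was 80 of the 150, near the 52.5% of the 18424 loci with at least 50 oral-aboral counts. The class with under 10% left also held 19 of the 21 with a called tilt. Over all 55 loci of that class the median log2 change from section 1 to section 8 was -1.84, against -0.79 in the class with over 50% left. Across the 150 loci the level left in sections 21 and 22 and the log2 ratio of oral-aboral section 6 to section 3 had a Spearman rho of 0.45. All 150 values of each measure come from the same libraries, so the loci are not independent points.

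**Figure D5:**
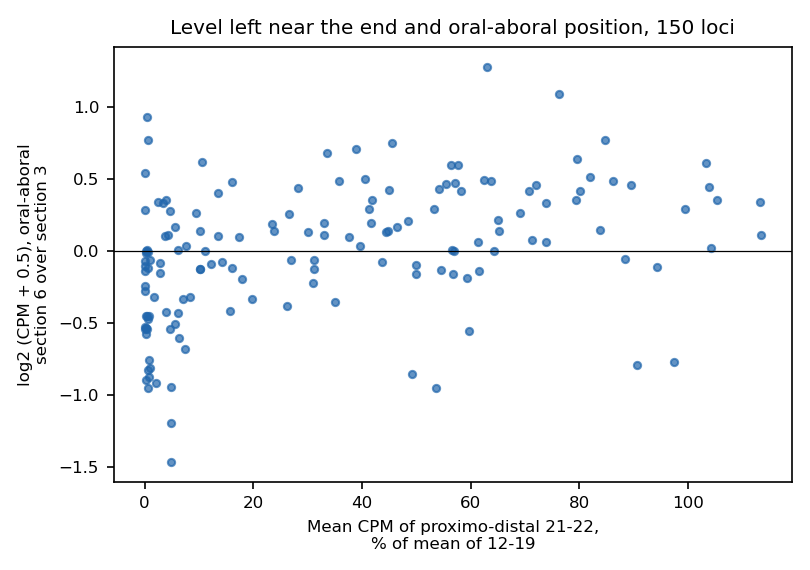
Log2 ratio of CPM + 0.5 in oral-aboral section 6 over section 3 against the mean CPM of proximo-distal sections 21 and 22 as % of the mean of sections 12 to 19, 1 point per locus, 150 loci. Points at the left edge lie mostly below 0, and most points past 50% lie above it, with a Spearman rho of 0.45.

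Most of the loci were lower in the left-right series of specimen 2 than in the oral-aboral series of specimen 1. The proximo-distal series, also of specimen 1, is not part of this comparison. Pooled over all sections, 126 of the 150 had a lower CPM in the left-right than in the oral-aboral series, as had 57.0% of the 18424 loci with at least 50 oral-aboral counts. The median log2 ratio of CPM + 0.5 was -1.54 over the 150 loci, with a range of -7.95 to 1.98, and -0.20 over those loci. Of the 150, 9 had at most 3 left-right counts although they had 71 to 4971 oral-aboral counts. Of all loci with at least 71 oral-aboral counts, 2.18% had at most 3 left-right counts. V4_HAP1_PB.20788 and V4_HAP1_PB.16441, chosen after their values were seen, had 0 left-right counts and 4971 and 2916 oral-aboral counts. Against the floor of 0.173 CPM (3 counts over all left-right libraries) they were at least 711-fold and 417-fold lower in the left-right series. Specimen and cutting axis cannot be told apart here.

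Several of the loci have neighbouring identifier numbers. There were 11 pairs with numbers 1 apart, involving 21 of the 150 loci, against 6 pairs and 12 loci among the next 150 by ratio. V4_HAP1_PB.3962, V4_HAP1_PB.3963 and V4_HAP1_PB.3964 are such a run, and all 3 were highest in oral-aboral section 3 and in left-right section 5 or 6. What the numbering follows is not given, and near-identical copies could share reads, so these loci may not be separate measurements.

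The formula of the ratio was also applied to the 66 rows with a gene symbol, for comparison. FoxA, which encodes a forkhead factor of endoderm development, was the only 1 of them whose ratio (15.2) reached that of the last locus of the group. It averaged 303.7 ± 158.4 CPM in sections 12 to 19 (SD, n = 8 sections) and 15.3 ± 8.2 CPM in sections 1 to 11 (n = 11 sections), but was higher still in sections 20 to 22, at 1042 ± 807 CPM (n = 3 sections). The 3 rows most like the summed CPM of the 150 loci, by the mean of Spearman rho over the 8 oral-aboral and the 16 left-right sections, were the forkhead gene FoxQ2 (0.787) and the homeobox genes Nkx2.1 (0.671) and Hox8 (0.612). That sum is weighted towards the loci with the most counts. Without V4_HAP1_PB.21421 in it the same 3 rows came first (0.751, 0.668 and 0.553). Over the left-right sections alone their rho was 0.701, 0.556 and 0.439. Nkx2.1 and Hox8 did not share the left-right gap. In sections 6 to 8, 9 to 10 and 11 to 16 Nkx2.1 averaged 72.2, 60.1 and 38.4 CPM. Hox8 averaged 67.0, 38.0 and 18.1 CPM in the same sections. FoxQ2 rests on few reads, with 7 proximo-distal counts. In the series used for rho it had 62 counts in oral-aboral sections 3 to 6 and 4 in the other oral-aboral sections. It had 8 counts in left-right sections 6 to 11 and 7 in the other left-right sections, so its left-right ranks rest on very few reads.

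Genes taken here as markers of endoderm were, like the group, higher in the inner oral-aboral sections. They were not the rows closest to the group there. Over the 8 oral-aboral sections, Spearman rho with the group's summed CPM was 0.786 for FoxA and Nkx2.1. It was 0.762 for Nkx2.2 and 0.738 for Hedgehog, against 1.0 for Wnt1 and 0.952 for Fzd1-2-7. Other rows ran against the group, such as Pax2-5-8 (-0.952). The summed CPM of FoxA, Nkx2.1, Nkx2.2 and Hedgehog was 864.4 to 1145 in oral-aboral sections 3 to 6, against 40.1 to 336.4 in the other sections. FoxA was the largest part of that sum, with a mean of 589.6 CPM in sections 3 to 6 (n = 4 sections). The means there were 202.2 CPM for Nkx2.2, 179.7 for Nkx2.1 and 57.3 for Hedgehog. Of the 4 genes, 4 were called higher inside, as were 27.0% of all loci tested, while 23.3% of all loci were called lower. None of the 4 was at 0 over either set of sections. Along the arm the sum was 201.9 to 706.7 CPM in sections 12 to 19, against 644.4 to 3119 in sections 20 to 22 and 69.5 to 148.8 in sections 1 to 11. In the left-right series it did not share the gap: it was 141.5 to 250.1 CPM in sections 9 and 10, against 130.8 to 283.4 in sections 6 to 8 and 32.0 to 105.3 in sections 11 to 16. The list of 9 nervous system and anterior ectoderm genes held Otx, Pax6, Six3-6, FoxG, FezF, Dmbx, Tailless, Lhx1-5 and Otp. In the inner oral-aboral sections 5 were called higher (Otx, FezF, Dmbx, FoxG and Pax6) and 2 lower (Lhx1-5 and Otp). Their sum was 77.0 to 145.8 CPM there, against 102.1 to 230.7 in the outer ones. A sum gives most weight to the gene with the most counts. Lhx1-5 had the highest mean of the 9 in proximo-distal sections 1 to 11 (169.6 CPM). Of 4 posterior Hox genes (Hox11-13a to Hox11-13d), 2 were called higher and 1 lower inside, with sums of 17.8 to 57.3 and 22.8 to 148.3 CPM. The 2 called higher, Hox11-13a and Hox11-13c, rest on few reads and had 0 proximo-distal counts. Hox11-13a was at 0.636 to 4.07 CPM in oral-aboral sections 3 to 6. The row Hox11-13e was not on the list. In the left-right series the nervous system and anterior ectoderm sum was 387.9 to 461.0 CPM in sections 9 and 10, against 132.4 to 272.3 in sections 6 to 8 and 131.8 to 266.0 in sections 11 to 16. The posterior Hox sum was 21.1 to 24.7 CPM in sections 9 and 10, against 30.3 to 63.8 in sections 6 to 8 and 39.5 to 109.2 in sections 11 to 16. Thus the sum of one list was highest and that of the other lowest where the 150 loci had their gap. By gene, the left-right test of the middle called 6 of the 8 nervous system and anterior ectoderm genes tested higher and 2 lower. It called 1 of the 2 posterior Hox genes tested lower, and 3 of the 4 endoderm genes higher. Of all loci tested there, 13.3% were called higher and 8.73% lower. The part of any of these tissues in the result was not tested.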

How the data were processed

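The authors deposited raw counts per transcript model and library, with no normalization; per the labels' protocols, libraries followed an Iso-Seq Express and SMRTbell preparation. For the counts, the aligner, the genome build and any read filter were not given in the sources used here. The 25794 rows were summed to 23869 loci, and 0 of the 150 loci matched the RefSeq table of assembly Pmin_3.0. The loci, marker lists and rules were chosen with earlier results of these data known. Named loci are the 2 of highest ratio, the 2 of highest mean in sections 12 to 19, those at the boundary, the 2 of smallest p per direction and test, V4_HAP1_PB.21421, and symbol rows alike in ratio or profile.

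Each of the 2 series tested was fitted alone over all loci with edgeR 4.0.16 in R 4.3.3. Loci were kept by filterByExpr (minimum count 5, minimum total 15) and scaled by TMM. Position and its square were fitted together by the quasi-likelihood test, with Benjamini-Hochberg adjustment at 0.05. Alternatives used DESeq2 1.42.0, limma 3.58.1, other scalings, filters, designs and left-out sections. No 2 libraries of the same series agreed within sampling noise (smallest chi-square per degree of freedom 1.30), and pairs across series were not compared. Reads have no molecular identifiers in these sources, so binomial intervals and count floors cover only counting error.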

Additional observations from a re-analysis of the deposited data

How the results depend on the processing

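All 150 loci were called higher in the inner oral-aboral sections under every scaling, DESeq2, limma-trend, the other count minimum, unsummed models and a depth covariate, and 147 to 150 with single sections left out. Without both end sections 119 were called, and 149 of 149 with V4_HAP1_PB.21421 left out of the table. With sections 3 to 6 set against the rest 93 were called (62.0%, against 22.4% of all loci), and 88 (of 88 tested) under a filter over nearly all sections, which was added after the data were seen and tests fewer loci. The oral-aboral spline called 53 without both end sections (35.3% against 23.5%). The tilt between the faces (21 called) gave 69 with log2 total count as a covariate (46.0% against 4.02%), 2 without both end sections (1.33% against 1.15%), 0 with groups of sections (0 of all loci) and 3 to 41 with single sections left out. The left-right middle (17 called) gave 37 with DESeq2 (26.4%, against 13.1% of all loci), 41 with total count alone (29.3% against 25.3%), 3 with groups of sections (2.26% against 9.33%), 7 without both end sections (5.0% against 9.48%), 5 (of 49 tested, 10.2% against 13.3%) under the filter over nearly all sections and 5 to 52 with single sections left out. Total count alone moved the median left-right middle change of all loci to 0.49, against 0.14 by TMM. The left-right slope (0 called) gave 1 with DESeq2 and 0 to 1 with single sections left out. The causes were not tested. Other ways to apply the choice of loci kept 127 to 150 of the 150. No paired analysis was possible because section numbers are positions and do not pair sections of different axes. Depth limits single proximo-distal sections most, where 3 counts stand for up to 16.3 CPM.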
